A study of Saccharomyces cerevisiae with 28 samples.

Results

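Yeast genes for old yellow enzymes, nitroreductase-like proteins and aryl-alcohol dehydrogenase relatives are described here across all RNA libraries of the study, 8 of the 9217 features in the untagged total RNA tables. They are the old yellow enzyme genes OYE2 (YHR179W) and OYE3 (YPL171C), the nitroreductase-like genes FRM2 (YCL026C-A) and HBN1 (YCL026C-B), and 4 genes of the aryl-alcohol dehydrogenase family, AAD4 (YDL243C), AAD6 (YFL056C), AAD14 (YNL331C) and AAD16 (YFL057C). They were taken by systematic name. The set was chosen by the total RNA increase of OYE3 and HBN1, which are among the largest H2O2 inductions, so the H2O2 response in WT is given as a description only, with no test. Since OYE3 and HBN1 were chosen for a strong H2O2 increase, their responses are given without a p in every strain. The members whose responses are tested below were also chosen with results of these data known.

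Old yellow enzymes are flavoproteins that take electrons from NADPH and reduce the double bond next to a carbonyl group, as found in aldehydes released when lipids are oxidised. Frm2 and Hbn1, the latter named for its likeness to bacterial nitroreductases, have the fold of bacterial nitroreductases, which also pass electrons from a nicotinamide cofactor to a small electrophile. The AAD genes are named for their likeness to an aryl-alcohol dehydrogenase of the white-rot fungus Phanerochaete chrysosporium, lie near chromosome ends in several copies, and have no settled role in yeast. In budding yeast the H2O2 response runs largely through the transcription factor Yap1, which is oxidised, stays in the nucleus and binds sites of the type TTACTAA or TGACTAA. Sro9 and Slf1 are La-related proteins (LARPs), RNA-binding proteins that share a La motif.

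The groups were WT cells (strain BY4741), sro9Δ cells (GP6330) and slf1Δ cells (GP7302), each untreated or after 15 min in 0.4 mM H2O2, with 2 total RNA libraries per group and 12 in all. Strains GP6482 (Sro9-TAP) and GP6797 (Slf1-TAP) gave 8 PAR-CLIP libraries and 8 further total RNA libraries in the same treatments. All strains derive from BY4741, the deletions replace the whole open reading frame with KanMX4, and the TAP tags sit at the C-terminus of the natural locus under its own promoter with HIS3 as marker. PAR-CLIP cells were grown with 4-thiouracil, which crosslinks to bound protein and then reads as C where the gene has T. Each deletion is represented by 1 strain, so a change at another place in its genome cannot be told apart from the named deletion.

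The depth of the untagged libraries was uneven. Without 31 rRNA features, between 172733 (slf1Δ H2O2 replicate 1) and 21138318 counts were left per library, and rRNA took between 1.44% and 94.8% of the counts. A second shallow library was sro9Δ untreated replicate 1 with 243137 counts, where 3 counts, taken as the floor, equal 9.52 CPM. SRO9 had at most 1 count in the sro9Δ libraries and SLF1 had 0 counts in the 4 slf1Δ libraries, while LEU2, URA3 and MET17, deleted in BY4741, had 0 counts in all 12. The tagged libraries held between 32070610 and 41084173 counts. For these 8 libraries the GEO labels and the names of the deposited files disagree on both the tag and the treatment, so they are called by their labels throughout and a sign is a sign between labels.

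Levels are given as CPM, counts per 1000000 counts of the TMM-scaled library without rRNA, and comparisons between genes as RPKM, CPM per kilobase of gene. OYE2 lies on chrVIII:462502-463704 and OYE3 on chrXVI:226169-227371 (genome build R64, sacCer3), each as a single exon of 1203 nt. Their coding sequences were identical at 73.5% of aligned bases, with no shared run above 14 nt, so reads of either gene could be assigned. In untreated cells OYE2 had a mean of 425 to 702 RPKM over the 3 strains, and the other 5 members with a length of their own at most 18.2 RPKM.

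In WT, OYE2 stood at 515 and 674 CPM untreated and at 2753 and 2490 CPM after H2O2. In sro9Δ it stood at 495 and 527 CPM and rose to 3674 and 3438 CPM. In slf1Δ it went from 775 and 915 CPM to 2423 and 3118 CPM. Treated and untreated libraries did not overlap in any strain, which held in this direction for 34.4% of the 7726 features tested in WT, 33.9% in sro9Δ and 29.5% in slf1Δ. The log2 change was 2.14 (SE 0.37) in WT, where OYE2 ranked 410 of 7726 features by size of increase. It was 2.80 (SE 0.38, 6.95-fold) in sro9Δ, with an adjusted p of 1.38e-04, and 1.71 (SE 0.37, 3.28-fold) in slf1Δ, with an adjusted p of 0.00523, both by the quasi-likelihood test of edgeR, adjusted by Benjamini-Hochberg over all features. The slf1Δ call was lost without slf1Δ untreated replicate 1 (adjusted p 0.0940, log2 1.60) or replicate 2 (0.0710, log2 1.75). A change in a culture's total RNA can come from more RNA per cell or from more cells that hold it, and these cannot be told apart here.

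OYE3, the paralogue of OYE2, was near the floor in untreated cells and among the strongest increases after H2O2. Its WT levels were 1.03 and 2.12 CPM untreated (4 and 32 counts) and 477 and 453 CPM after H2O2. In sro9Δ the untreated libraries held 0 and 2 counts (0 and 1.27 CPM) and the treated ones 268 and 385 CPM. In slf1Δ the values were 1.40 and 1.57 CPM untreated and 178 and 176 CPM after H2O2. No treated library was below 176 CPM and no untreated library above 2.12 CPM. The log2 change was 8.01 (SE 0.35) in WT, the fourth largest increase of 7726 features. In slf1Δ it was 6.86 (SE 0.42, 116-fold, rank 7). In sro9Δ edgeR gave 8.25 (SE 0.91, rank 9), but this rests on 2 untreated counts. Set against 3431 counts after H2O2, these give a ratio of 284 with an exact 95% interval of 78.4 to 2343, which covers counting error only.

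Since the 2 genes have the same length, their RPKM can be summed and compared. OYE2 had 428 and 561 RPKM in untreated WT against 0.858 and 1.76 RPKM for OYE3. OYE3 made up 0.200% and 0.314% of the summed level in untreated WT and 14.8% and 15.4% after H2O2. The exact (Clopper-Pearson) 95% intervals of the treated values, which cover counting error only, were 14.3% to 15.3% and 14.0% to 16.9%. In sro9Δ the OYE3 share after H2O2 was 6.79% and 10.1%, and in slf1Δ it was 6.85% and 5.35%. The sro9Δ intervals, 6.52% to 7.07% and 9.54% to 10.6%, did not overlap, so the replicates differed by more than counting error. OYE2 remained the more abundant of the pair in all 12 libraries. The treated WT shares lay above those of the treated deletion strains. They rest on the WT values of the choice, and no test was made of this difference in share.

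**Figure D1:**
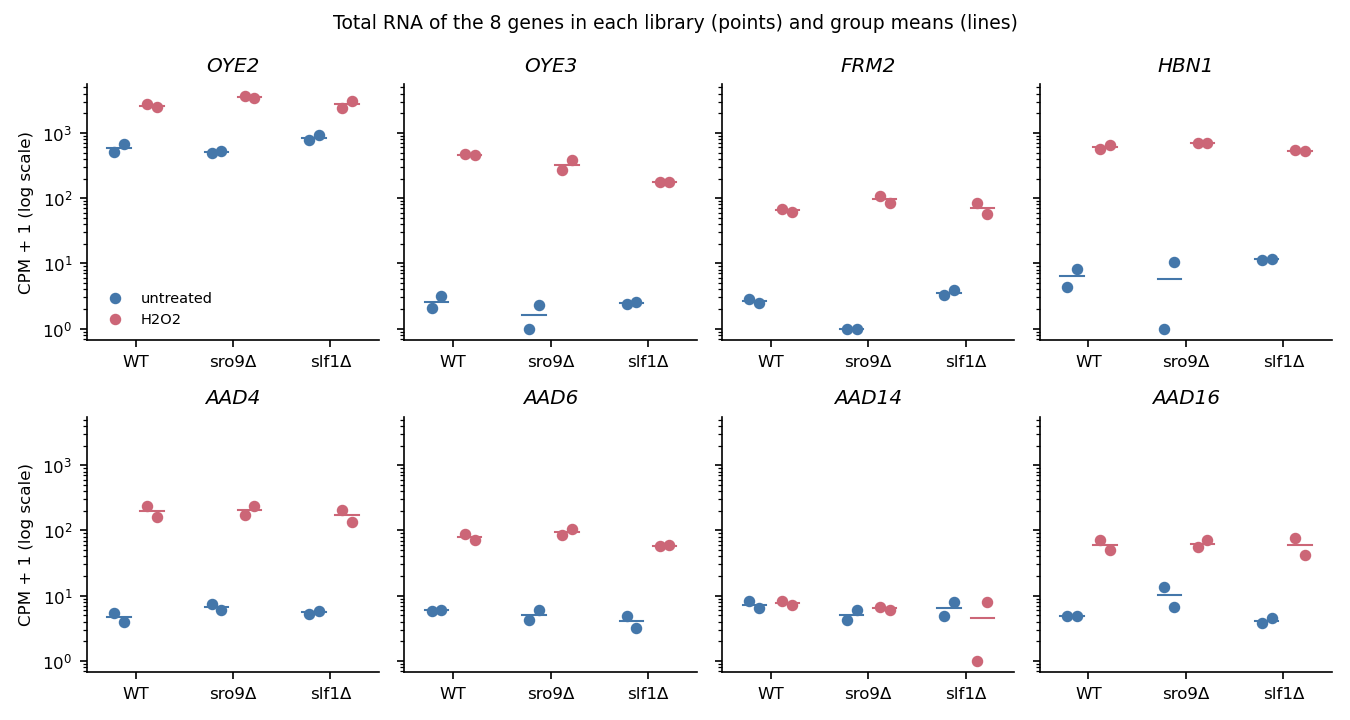
Total RNA of the 8 genes in the 12 untagged libraries, as CPM plus 1 on a log scale, with untreated libraries in blue and libraries after H2O2 in red, 2 points per strain and treatment and a line at the group mean. OYE2 starts at 495 to 915 CPM, and 7 of the 8 genes separate by treatment in each strain, as 34.4% (WT), 33.9% (sro9Δ) and 29.5% (slf1Δ) of all features do in this direction, while AAD14 does not.

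FRM2 (chrIII:74704-75285) and HBN1 (chrIII:73405-73986) are neighbours on the minus strand of chromosome III, each a single exon of 582 nt, and were identical at 67.4% of aligned bases. HBN1 was the higher of the 2 after H2O2. In WT it went from 3.36 and 7.30 CPM to 571 and 660 CPM. In sro9Δ it had 0 and 15 counts untreated (0 and 9.53 CPM) and 706 and 710 CPM after H2O2. In slf1Δ it went from 10.3 and 10.9 CPM to 548 and 523 CPM. The 6 treated values lay within 523 to 710 CPM. The log2 change was 6.74 (SE 0.39) in WT (rank 8), 6.58 (SE 0.54) in sro9Δ (rank 28) and 5.65 (SE 0.38) in slf1Δ (rank 18). In sro9Δ the 0 counts of untreated replicate 1 allow a level of up to 9.52 CPM, about that of replicate 2.

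FRM2, named for a link to fatty acid metabolism, stood at 1.81 and 1.46 CPM in untreated WT and at 67.6 and 60.7 CPM after H2O2. In slf1Δ it went from 2.23 and 2.83 CPM to 84.3 and 56.4 CPM. In sro9Δ it had 0 counts in both untreated libraries, and 108 and 83.2 CPM after H2O2. Over the sro9Δ untreated group, the floor of 3 counts is 1.59 CPM, so FRM2 was at least 63.8-fold higher after H2O2, with an adjusted p of 5.95e-07 by edgeR. The log2 change was 5.35 (SE 0.36) in WT and 4.62 (SE 0.37) in slf1Δ, with an adjusted p of 3.27e-07 in slf1Δ. After H2O2, FRM2 made up 8.42% to 13.3% of the summed FRM2 and HBN1 level over the 6 libraries, so HBN1 was the more abundant neighbour in each. The exact 95% intervals of these 6 shares ran from 6.29% to 20.3%.

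The AAD members differ in how well they can be measured. AAD4 (chrIV:17577-18566) and AAD14 (chrXIV:16118-17248) are single-exon genes, and AAD6 (chrVI:14305-15431) is annotated in RefSeq as a pseudogene whose entry also carries the name of AAD16. The deposited tables list AAD6 and AAD16 apart, and no level per length is given for them. AAD4 was identical to AAD14 at 90.5% of aligned bases with a longest shared run of 73 nt, and to AAD6 at 89.7% with a run of 123 nt. Reads from such stretches fit several copies, so the counts of single AAD genes are uncertain.

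AAD4 went from 4.39 and 2.92 CPM to 235 and 157 CPM in WT. It went from 6.34 and 5.08 CPM to 169 and 236 CPM in sro9Δ, and from 4.19 and 4.88 CPM to 206 and 134 CPM in slf1Δ. Treated and untreated libraries did not overlap in any strain. AAD4 changed by a log2 of 5.84 (SE 0.33) in WT (rank 15), 5.24 (SE 0.51) in sro9Δ (adjusted p 6.82e-07 by edgeR) and 5.13 (SE 0.35) in slf1Δ (adjusted p 9.87e-08).

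AAD6 went from 4.91 and 5.11 CPM to 87.0 and 70.6 CPM in WT, from 3.17 and 5.08 CPM to 83.2 and 104 CPM in sro9Δ, and from 3.91 and 2.2 CPM to 56.2 and 58.5 CPM in slf1Δ. Its log2 change was 3.98 (SE 0.29), 4.30 (SE 0.48) and 4.30 (SE 0.35), with an adjusted p by edgeR of 2.41e-06 in sro9Δ and 2.64e-07 in slf1Δ. Reads counted on a locus annotated as a pseudogene thus rose in each strain, and some of them may belong to AAD4 or another similar copy.

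AAD16, the other name on the same locus, went from 3.87 and 3.85 CPM to 69.3 and 49.5 CPM in WT. In sro9Δ it had 4 and 9 counts untreated (12.7 and 5.72 CPM) and 54.7 and 69.3 CPM after H2O2. In slf1Δ it went from 2.79 and 3.46 CPM to 75.0 and 41.7 CPM. AAD16 changed by a log2 of 3.97 (SE 0.35) in WT, 3.09 (SE 0.47, adjusted p 1.44e-04 by edgeR) in sro9Δ and 3.97 (SE 0.40, adjusted p 2.28e-06) in slf1Δ. The sro9Δ call was lost without sro9Δ untreated replicate 2 (log2 2.28, adjusted p 0.0517).

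AAD14 was the exception among the 8. It stood at 7.23 and 5.37 CPM in untreated WT and at 7.35 and 6.19 CPM after H2O2, at 3.17 and 5.08 against 5.80 and 5.06 CPM in sro9Δ, and at 3.91 and 7.09 against 0 and 7.05 CPM in slf1Δ. Treated and untreated libraries overlapped in every strain. The 0 counts in slf1Δ H2O2 replicate 1 allow a level of up to 14.1 CPM. The log2 change was 0.20 (SE 0.44) in WT, 0.23 (95% interval -1.09 to 1.55, adjusted p 0.848 by edgeR) in sro9Δ and 0.20 (-0.77 to 1.16, adjusted p 0.805) in slf1Δ. These intervals leave room for a change in either direction.

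Read as a group, 7 of the 8 members passed the test as higher after H2O2 in sro9Δ, where 10.4% of the 7726 features tested did so. In slf1Δ the same 7 members passed, against 11.4% of all features. OYE3 and HBN1 are among these 7 and were chosen for their H2O2 increase, so nothing is read from their passing. In WT, on which the choice rests, the background was 18.5%. All 8 members passed the filter on low counts. AAD6 and AAD16, counted apart here, share a RefSeq locus. The median log2 change of the 8 was 4.67 in WT, 4.77 in sro9Δ and 4.46 in slf1Δ, beside 0.02, 0.07 and 0.02 over all features. These medians and the summed level below include OYE3 and HBN1, and the WT values rest on the choice. They are descriptions, and nothing is read from them. The summed level of the 8 genes was 542 and 702 CPM in untreated WT and 4266 and 3947 CPM after H2O2. Without both libraries in which rRNA took over 90% of the counts, an alternative chosen after seeing the data, 7 of 8 members still passed in each deletion strain.

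**Figure D2:**
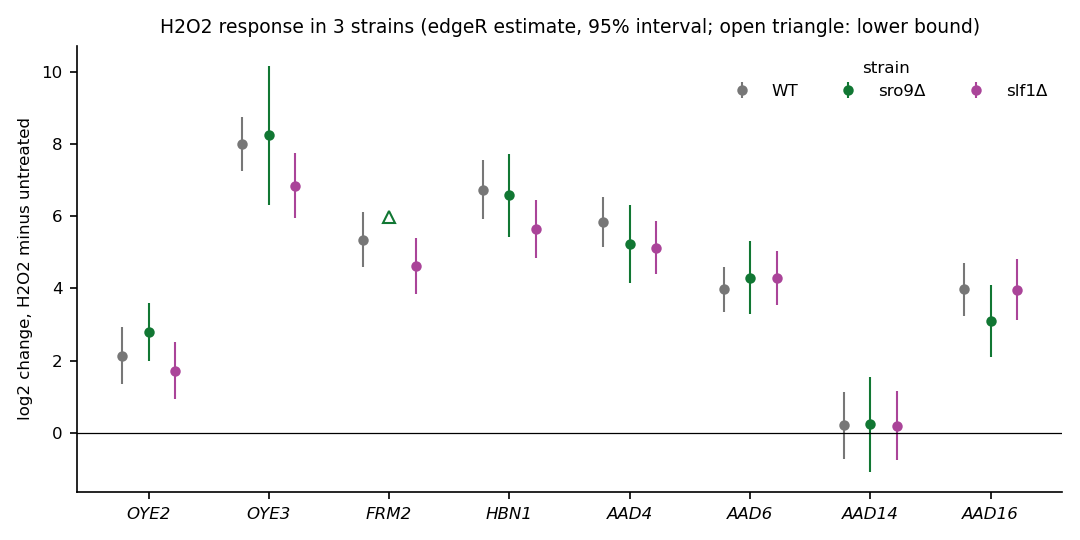
Log2 change of total RNA, H2O2 minus untreated, of the 8 genes in WT (grey), sro9Δ (green) and slf1Δ (purple), as the edgeR estimate with its 95% interval. OYE3 lies highest in WT and slf1Δ, AAD14 lies near 0 in all 3 strains, and the open triangle marks the lower bound (63.8-fold) for FRM2 in sro9Δ, where the untreated libraries held 0 counts.

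The study asks what the LARPs do in the H2O2 response, so the change of each member was compared between strains. Between slf1Δ and sro9Δ, which share no library with the WT contrast, 0 of 8 members differed by edgeR at an adjusted p under 0.05 and 0 by DESeq2. Over all features 0% were called, with 325 at an unadjusted p under 0.05. The estimates ran from -1.40 for OYE3 (slf1Δ minus sro9Δ, 95% interval -3.52 to 0.73) to 0.88 for AAD16 (-0.43 to 2.19), leaving out FRM2, whose untreated sro9Δ level has no value and whose unadjusted p was 0.00135. The interval of OYE2 was -2.20 to 0.04 and that of HBN1 -2.34 to 0.48. Both include 0 and leave room for a smaller increase in slf1Δ, and no direction is read from them.

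The response in slf1Δ was also set against that in WT, which uses the WT libraries on which the members were chosen. Here 0 of 8 members were called by edgeR, DESeq2 or the fit with a replicate block, and 0% of all features by edgeR, with 914 at an unadjusted p under 0.05. Over all features DESeq2 called 51 and the fit with a replicate block 63, none of them a member. OYE3 gave the lowest estimate, -1.15 (95% interval -2.31 to 0.01), followed by HBN1 at -1.09 (-2.25 to 0.06), and AAD6 the highest at 0.32 (-0.65 to 1.29). No member had an unadjusted p under 0.05. For sro9Δ against WT, 0 of 8 were called by edgeR and 0 by DESeq2, beside 0% of all features by edgeR (590 at an unadjusted p under 0.05) and 2 features by DESeq2. Without FRM2, which alone among the members had an unadjusted p under 0.05, the estimates ran from -0.88 for AAD16 (-2.12 to 0.36) to 0.66 for OYE2 (-0.46 to 1.78).

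Levels were then compared between strains within each treatment, again against the WT libraries. OYE3 and HBN1 were chosen by their increase in these WT libraries, so their differences from WT are descriptions and are given without a p. After H2O2, OYE3 stood at 178 and 176 CPM in slf1Δ (38 and 3000 counts) and at 477 and 453 CPM in WT (2724 and 366 counts), a log2 difference of -1.39 (SE 0.28). With any of these 4 libraries left out it was between -1.43 and -1.36. By edgeR 1 of 8 members, OYE3, was past the threshold, against 0.777% of all features, and none was with any of the 4 libraries left out. Nothing is read from this count, which rests on the WT values of the choice. OYE2 differed by 0.08 in the same libraries (95% interval -0.71 to 0.87). In slf1Δ the 2 treated libraries had 94.8% and 1.44% of their counts on rRNA, and the part of this in the result was not tested.

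In sro9Δ after H2O2, 0 of 8 members were called against WT by edgeR (0.0388% of all features, 0 members at an unadjusted p under 0.05, 0 members by DESeq2). The estimates ran from -0.51 for OYE3 to 0.57 for FRM2 (adjusted p 0.586). In untreated cells 0 of 8 members were called in sro9Δ (0.194% of all features) and 0 of 8 in slf1Δ (0.142%) by edgeR, and 0 in both by DESeq2. In untreated slf1Δ, HBN1 stood at 10.3 and 10.9 CPM against 3.36 and 7.30 CPM in WT, a log2 difference of 0.89, and AAD6 gave -0.78 (adjusted p 0.395, unadjusted 0.0415). Leaving aside OYE3 and HBN1, on which the choice rests, AAD6 was the only member with an unadjusted p under 0.05 there. In untreated sro9Δ only FRM2 had one, at 0.0189, with 7 and 22 counts in WT and 0 in both sro9Δ libraries, whose group floor of 1.59 CPM lies between the 2 WT values (1.81 and 1.46 CPM), so no fold is given. The other estimates ran from -0.76 for OYE3 to 0.90 for AAD16 (adjusted p 0.580), from 2 and 13 sro9Δ counts.

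The 8 tagged libraries were far deeper, so levels near the floor can be read there, with the caution on their labels. In libraries labelled Sro9-TAP, OYE3 had 996 and 1070 CPM where the label says untreated and 4.83 and 5.80 CPM where it says H2O2. In those labelled Slf1-TAP it had 816 and 518 CPM and 2.53 and 3.16 CPM. FRM2 had 91.7 and 90.1 against 1.42 and 1.12 CPM (Sro9-TAP labels) and 48.4 and 44.6 against 0.380 and 0.745 CPM (Slf1-TAP labels). HBN1 had 1211 and 1265 against 19.2 and 17.6 CPM, and 633 and 484 against 13.3 and 14.1 CPM. OYE2 had 2772 and 2802 against 785 and 789 CPM, and 1798 and 1560 against 576 and 584 CPM. Each of these 4 genes was thus lower under the label H2O2 in both strains, with no overlap, as were 42.5% (Sro9-TAP) and 38.1% (Slf1-TAP) of all features.

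As labelled H2O2 minus labelled untreated, the log2 difference of OYE3 by edgeR was -7.60 (SE 0.22) for Sro9-TAP and -7.87 (SE 0.22) for Slf1-TAP. AAD4 gave -5.61 and -5.99, AAD6 -4.56 and -4.80, AAD16 -4.05 and -4.77, HBN1 -6.08 and -5.35, FRM2 -6.16 and -6.36, and OYE2 -1.82 and -1.53. These 7 were lower in both comparisons, opposite in sign to their change after H2O2 in the untagged strains. Whether the labels or the file names are right was not tested. AAD14 had 13.0 and 13.3 against 11.4 and 12.6 CPM for Sro9-TAP (-0.13, adjusted p 0.400) and 16.2 and 16.2 against 8.95 and 7.45 CPM for Slf1-TAP (-0.98, SE 0.12, adjusted p 4.16e-04), and whether these 2 values differ was not tested. In all, 7 of 8 members were lower for Sro9-TAP, where 29.4% of 7673 features were, and 8 of 8 for Slf1-TAP, where 29.5% were. These counts include OYE3 and HBN1, on which the choice rests. The median of the 8, which includes OYE3 and HBN1 as well, was -5.08 and -5.07, beside -0.01 and 0.00 over all features. It is a description only. A lower level under the label H2O2 was not particular to the members. Of the 16 Yap1 targets listed below, 15 were called lower for Sro9-TAP and 16 for Slf1-TAP, with medians of -3.65 and -3.37. After H2O2 in untagged WT, sro9Δ and slf1Δ their medians were 3.46, 3.66 and 3.04. OYE3 made up 26.4% and 27.6% of the summed OYE2 and OYE3 level under the label untreated for Sro9-TAP and 0.612% and 0.729% under the label H2O2, with exact 95% intervals within 26.2% to 27.9% and 0.524% to 0.834%.

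The regions before the start codons were read from the RefSeq R64 genome to see whether members that rose together share a Yap1-type site. Over 500 nt before the start codon and on both strands, TTACTAA occurred in 11.8% of 6002 promoters of protein-coding genes, TGACTAA in 5.96%, and CCCCT, the core of the stress response element, in 34.1%. These motifs do not overlap in sequence. TTACTAA was present at OYE2 (1 match), OYE3 (2), HBN1 (3), AAD4 (2) and the AAD6/AAD16 locus (2), and FRM2 and AAD14 had no match in the window. TGACTAA had no match at any member. CCCCT had 1 match at FRM2 and 1 at AAD4. The matches at the 2 most induced members and at OYE2 are printed on the gene's strand with 11 nt on either side, the motif in capitals (TTAGTAA is TTACTAA on the other strand).
OYE3 chrXVI:227502-227530, minus strand: cgcaataaccaTTACTAAgcacagtgttg
OYE3 chrXVI:227566-227594, minus strand: agaagggctccTTAGTAAgcagtttgcgt
HBN1 chrIII:74203-74231, minus strand: gtataccgcttTTACTAAtgattattcga
HBN1 chrIII:74254-74282, minus strand: aacgtcttagcTTAGTAAtaaagctctac
HBN1 chrIII:74428-74456, minus strand: gggtttgtgacTTACTAAcgtcaacgtac
OYE2 chrVIII:462164-462192, plus strand: gtctcgtgtgcTTAGTAAagcaaaacgga
The matches lay 141 and 205 nt before the start codon of OYE3, 227, 278 and 452 nt before that of HBN1 and 320 nt before that of OYE2. A match is a description of the sequence and says nothing of binding.

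Lists of related genes, chosen with results of these data known, set the members in their pathway. Of 16 Yap1 targets, 15 were called higher after H2O2 in WT, 14 in sro9Δ and 13 in slf1Δ, and 0 lower, with medians of 3.46, 3.66 and 3.04. The largest change was that of SRX1, the sulfiredoxin that reactivates peroxiredoxins (9.18, 8.80 and 9.0), and the smallest that of YCF1, a vacuolar glutathione conjugate transporter (0.35, 0.70 and 0.09). Of 14 other NAD(P)H-dependent aldehyde, ketone and quinone reductase genes, 10, 9 and 4 were higher, with medians of 1.36, 1.39 and 0.81. GCY1, a glycerol dehydrogenase, was at the top in each strain (4.65, 3.67 and 3.63) and YDR541C at the bottom (-0.26, 0.32 and -0.11). Of 9 genes that supply NADPH, 3 were higher and 0 lower in each strain, with medians of 1.05, 0.17 and 0.08. SOL4, a 6-phosphogluconolactonase, was at the top (4.61, 4.34 and 5.23). At the bottom were TKL1 in WT (-0.998) and SOL3 in sro9Δ and slf1Δ (-0.80 and -0.90). Over all features 18.5%, 10.4% and 11.4% were called higher, with medians of 0.02, 0.07 and 0.02.

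The other AAD family genes were not called in the untagged strains. Of AAD3, AAD10, AAD15 and YPL088W, 0 of 4 were called in any of the 3 strains by edgeR or DESeq2 (0, 1 and 1 at an unadjusted p under 0.05 by edgeR in WT, sro9Δ and slf1Δ), with medians of 0.39, 1.02 and 0.40. AAD15, 432 nt long and identical to AAD3 at 97.7% of aligned bases, had the highest estimate of the 4 in each strain, at 0.78, 1.73 and 1.35. Among the AAD genes of the untagged strains, an increase was thus called for AAD4, AAD6 and AAD16. In the deeper tagged libraries, as labelled H2O2 minus labelled untreated for Sro9-TAP and Slf1-TAP, YPL088W gave 1.63 and 1.21 (adjusted p 4.85e-05 and 2.03e-04 by edgeR), opposite in sign to the members. AAD3 gave -1.94 and -1.01 (adjusted p 0.0245 and 0.174), AAD10 0.26 and -0.68 (0.145 and 0.00417) and AAD15 -0.51 and -2.14 (0.732 and 0.169), so AAD3, AAD10 and AAD14 were each called lower for 1 of the 2 tags. Differences between the genes were not tested.

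Across the 12 untagged libraries, the 5 protein-coding genes whose log2 CPM followed OYE3 most closely, of 4940 with a mean of at least 50 counts, were AGX1 (Pearson r 0.995), SRX1 (0.994), TMC1 (0.989), YPR1 (0.988) and RIB3 (0.986). Among the members, HBN1 ranked 21 (0.977), OYE2 63 (0.967), AAD4 94 (0.956) and FRM2 107 (0.953), and AAD6, AAD14 and AAD16 were not among the genes ranked. For HBN1 the closest were GPX1 (0.986), MRS4 (0.985), YDL218W (0.984), EGO4 (0.983) and YHK8 (0.983), and OYE3 ranked 8, OYE2 59, FRM2 67 and AAD4 189. These values describe 12 libraries that share the treatment and its 2 levels, and any strongly induced gene has a high r with any other.

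PAR-CLIP shows which stretches of these mRNAs were crosslinked to each LARP. A cluster is a run of overlapping reads called in a single library, kept here if 11 to 100 nt long with 5 or more reads and 2 or more T–C conversions, and given to the sense gene under its mode, from 100 nt before the start codon to 200 nt after the stop codon. A gene with no kept cluster can have had a few reads. This left 6505 to 9022 clusters in each of the 4 Sro9 libraries and 709 to 1825 in each of the 4 Slf1 libraries. AAD6 and AAD16 are 1 locus here.

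On the 7 loci, Sro9 libraries held 8 and 8 clusters (126 and 155 reads) untreated and 37 and 38 clusters (1619 and 1116 reads) after H2O2. OYE2 had 120 and 155 reads untreated and 831 and 748 after H2O2. OYE3 had 0 and 0 reads untreated and 294 and 114 after H2O2. HBN1 had 6 and 0 reads, then 322 and 188. The AAD6/AAD16 locus had 0 and 0, then 156 and 33 reads, FRM2 0 and 0, then 9 and 23, and AAD4 0 and 0, then 7 and 10, while AAD14 had no kept cluster in any of the 8 libraries. With a cluster in both replicates, 1 of the 7 loci (OYE2) was among 1795 such genes untreated (27.7% of 6477 RefSeq genes), and 6 of the 7 were among 2074 after H2O2 (32%). On AAD6/AAD16, 1 of these 6, the clusters of the replicates did not overlap.

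Slf1 gave fewer reads on the members. OYE2 had 0 and 0 reads untreated and 111 and 29 after H2O2, in 6 clusters and 1 cluster. OYE3, HBN1 and AAD6/AAD16 had 10, 8 and 6 reads in Slf1 H2O2 replicate 1 and none elsewhere, and FRM2, AAD4 and AAD14 had none. OYE2 was the only member with a Slf1 cluster in both replicates, among 255 genes after H2O2 (3.94%), and 0 members were among 361 untreated (5.57%). Gene reads in kept clusters were 41623 to 61881 in the Slf1 libraries and 241001 to 331685 in the Sro9 libraries, so Slf1 contacts with few reads may not be detectable at this depth.

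**Figure D3:**
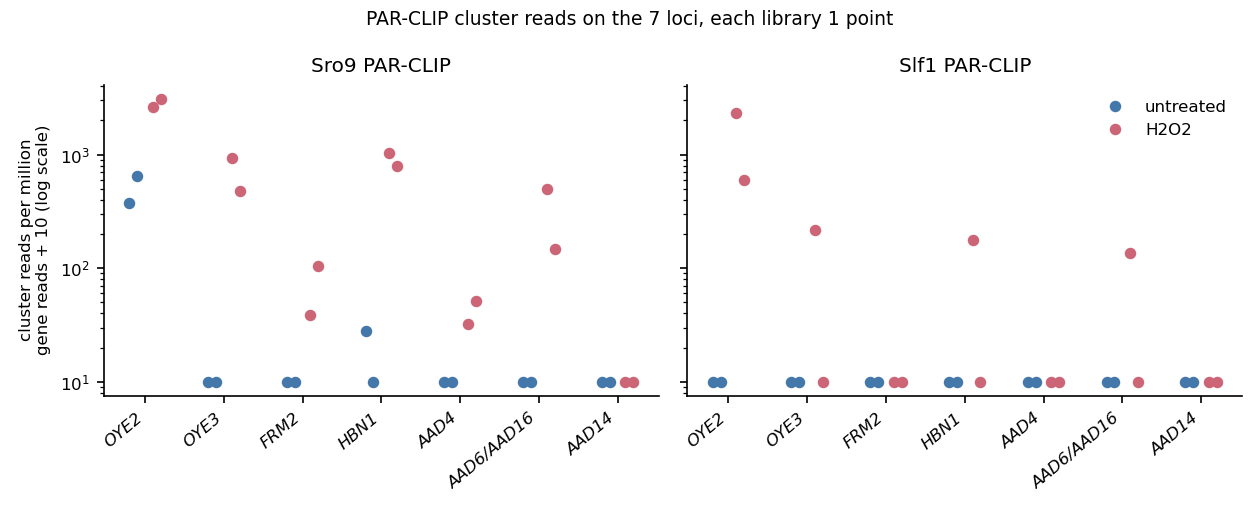
PAR-CLIP reads in kept clusters on the 7 loci, as reads per 1000000 of the reads in clusters on genes, plus 10, on a log scale, for Sro9 (left) and Slf1 (right), with untreated libraries in blue and libraries after H2O2 in red. Points at 10 had no kept cluster, OYE2 has Sro9 clusters in both treatments, and the other loci have theirs after H2O2, apart from 6 HBN1 reads in Sro9 untreated replicate 1.

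Cluster reads per gene were tested with edgeR over 2291 genes, of which 0% were called for Sro9 (114 at an unadjusted p under 0.05) and 0% for Slf1 (130), and no other tool was run on them. Of the 7 loci, 4 passed the filter (OYE2, OYE3, HBN1 and AAD6/AAD16), and OYE3, HBN1 and AAD6/AAD16 passed through the treated libraries alone, so no p is given for them. For Sro9 the log2 change of OYE2 was 2.49 (SE 1.00, 95% interval -0.06 to 5.03, adjusted p 1). For Slf1, OYE2 had an adjusted p of 0.227. No change in crosslinked reads thus passed the threshold. Of the loci with no Sro9 cluster in untreated cells, OYE3, FRM2, AAD4 and AAD6/AAD16 rose in total RNA in the same treatment in both deletion strains, while AAD14 was not called and had no cluster. The untreated WT means were 1.31 (OYE3), 2.81 (FRM2) and 3.69 RPKM (AAD4) against 494 RPKM for OYE2, and the part of RNA level in the cluster reads was not tested.

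Most clusters lay within coding sequence. After H2O2 66 of the 75 Sro9 clusters on members had their mode in the coding sequence and 9 after the stop codon, untreated 15 of 16 and 1, and for Slf1 9 of 10 and 1, with 0 before the start codon. A stretch covered in both Sro9 H2O2 replicates by at least 10 nt occurred 11 times on OYE2, 7 times on OYE3, 6 times on HBN1 and once each on FRM2 and AAD4. These stretches covered 31.2% of the OYE2 coding sequence (375 of 1203 nt) and 30.2% of that of HBN1 (176 of 582 nt).

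**Figure D4:**
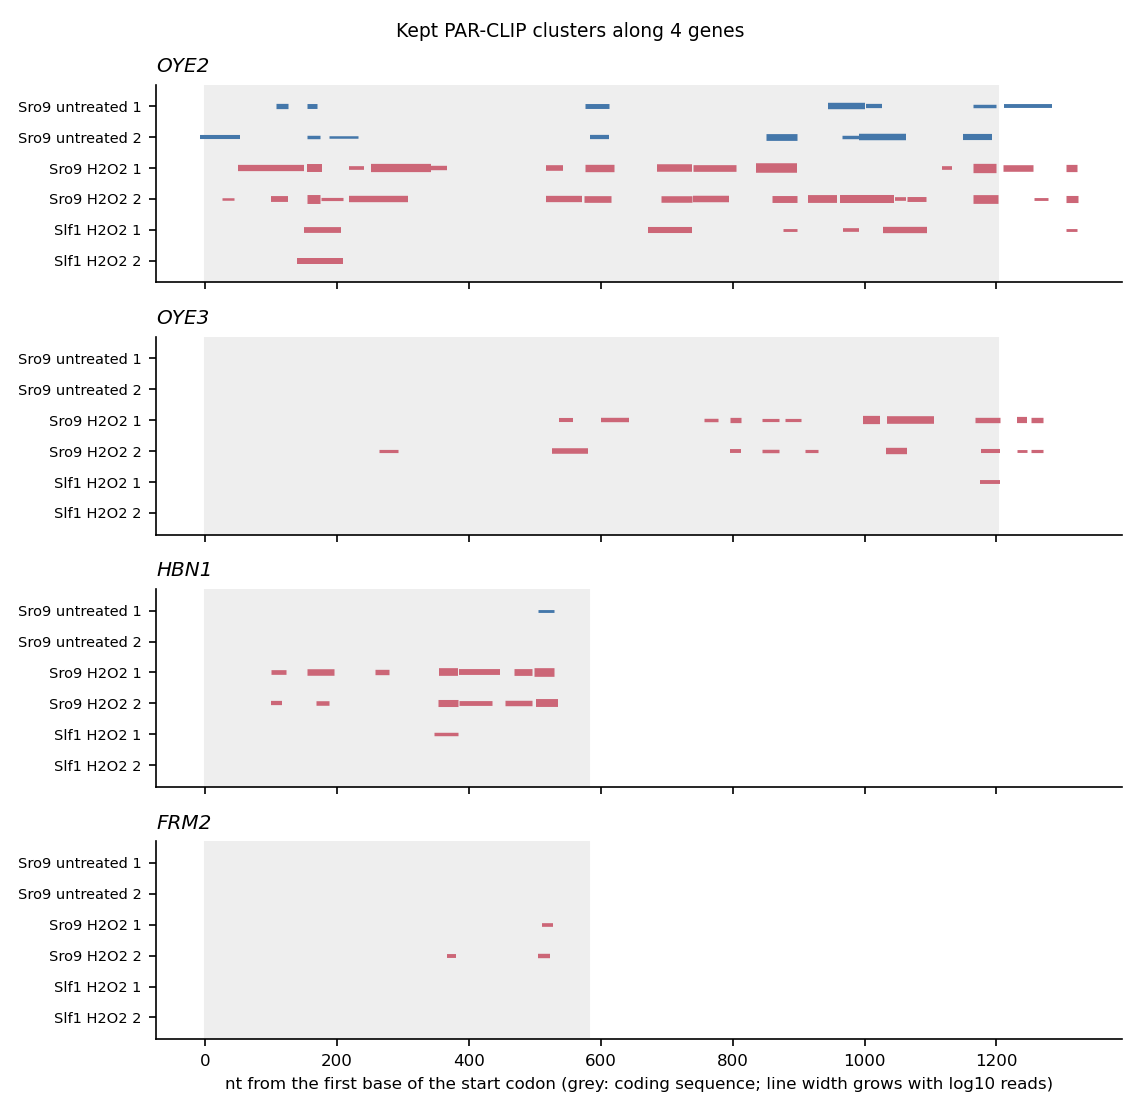
Kept clusters along OYE2, OYE3, HBN1 and FRM2 in each library with PAR-CLIP clusters on them, placed by their distance in nt from the first base of the start codon, with the coding sequence in grey and line width growing with the log10 of the reads. Clusters run along the whole of OYE2, the 9 OYE3 clusters of Sro9 H2O2 replicate 2 and 11 of replicate 1 lie mostly in the 3′ part, and OYE2 and OYE3 both have a site at the stop codon.

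The sequences of the sites with the most reads in the lower of the replicates (2 on OYE2, 2 on HBN1, 1 on OYE3), of the OYE2 and OYE3 sites at and after the stop codon and of the only shared FRM2 site are printed on the sense strand, with the stretch shared by both Sro9 H2O2 replicates in capitals.
OYE2 chrVIII:462656-462679, plus strand: ACTGGGCCGTTGAATACTACGctc
OYE2 chrVIII:463666-463705, plus strand: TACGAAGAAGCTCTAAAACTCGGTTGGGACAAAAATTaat
OYE2 chrVIII:463808-463826, plus strand: AACTTTTTTGCTTGGGCag
OYE3 chrXVI:226265-226339, minus strand: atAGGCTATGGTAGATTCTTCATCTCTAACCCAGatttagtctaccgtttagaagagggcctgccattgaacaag
OYE3 chrXVI:226165-226203, minus strand: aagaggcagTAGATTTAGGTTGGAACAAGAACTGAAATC
OYE3 chrXVI:226124-226139, minus strand: ATTTTTCATATTCCTG
OYE3 chrXVI:226101-226119, minus strand: ATTTTTAATTACAAAACTC
HBN1 chrIII:73451-73487, minus strand: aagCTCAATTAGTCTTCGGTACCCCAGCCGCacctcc
HBN1 chrIII:73602-73633, minus strand: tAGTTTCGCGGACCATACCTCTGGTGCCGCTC
FRM2 chrIII:74757-74780, minus strand: aattggTCTTTGGTGTTCCaactg
Reads given for a site are those of kept clusters that overlap its shared stretch, and such clusters can run past it. The first OYE2 site, in the coding sequence, had 17 and 8 Sro9 reads untreated and 78 and 127 after H2O2. The Slf1 clusters across it after H2O2, 57 and 71 nt long, had 26 and 29 reads. In replicate 2 the mode of the Slf1 cluster lay at chrVIII:462645, outside the site. This was the only member site overlapped by a Slf1 cluster in both replicates. The OYE2 site at the stop codon had 8 and 31 Sro9 reads untreated and 152 and 116 after H2O2. The site 112 nt past the stop codon had 54 and 50 Sro9 reads and 6 Slf1 reads in replicate 1, all after H2O2. Among the OYE3 sites shared by both replicates, that with the most reads, in the coding sequence, had 65 and 35 Sro9 reads after H2O2 alone. The OYE3 cluster with the most reads, 89 in Sro9 H2O2 replicate 1 at chrXVI:226347-226374, had no counterpart in replicate 2. The OYE3 site at the stop codon had 21 and 11 Sro9 reads and 10 Slf1 reads in replicate 1, all after H2O2. The OYE3 sites 39 and 61 nt past the stop codon had 32 and 6, and 21 and 7 Sro9 reads.

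The HBN1 site at chrIII:73451-73487 had 6 Sro9 reads in untreated replicate 1, and 110 and 75 after H2O2. The other HBN1 site had 68 and 49 Sro9 reads after H2O2 and 8 Slf1 reads in replicate 1. The FRM2 site had 9 and 13 Sro9 reads after H2O2. It lay in the same place of the gene as the first HBN1 site: all 13 of its shared bases aligned to bases within that site, with 4 mismatches between the 2 genes.

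OYE2 and OYE3 could be compared in the same way. In Sro9 H2O2 replicate 1 the sites at their stop codons had their modes at the same distance, 1182 nt from the start codon and 20 nt before the end of the coding sequence. In replicate 2 the modes lay apart, at 1181 nt for OYE2 and at 1206 nt for OYE3, 4 nt past the stop codon. Of 26 coding bases in the shared stretch of OYE3, 24 aligned to bases in the OYE2 site, with 8 mismatches between the genes. Of the other 4 coding stretches of OYE3, those at chrXVI:226500-226526 and chrXVI:226813-226834 overlapped an OYE2 site by 13 of 27 and 6 of 22 aligned bases, and those at chrXVI:226306-226337 and chrXVI:226558-226575 by 0 of 32 and 0 of 18. Since the OYE2 stretches cover 31.2% of its coding sequence, some overlap is given by coverage alone, and no test was made.

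On the AAD6/AAD16 locus 137 of the 156 Sro9 reads of H2O2 replicate 1, with 142 conversions, fell on a single cluster of 16 nt, and a Slf1 cluster of 6 reads lay on 15 of the same bases (in capitals).
AAD6/AAD16 chrVI:14873-14888, minus strand: aTACGCCTGCCTGGGT
This cluster sequence occurs at 1 place in the R64 genome. Sro9 H2O2 replicate 2 had no kept cluster on these bases. Its clusters lay elsewhere on the locus, and those with 16 and 5 reads occur at 2 places, while that with 12 reads occurs at 1. The shared AAD4 stretch at chrIV:17628-17641, with 7 and 10 reads, occurs at 2 places, so these AAD4 reads may belong to another copy.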

How the data were processed

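PAR-CLIP reads were trimmed by the authors (Trim Galore), mapped with Bowtie 1.2.0 to R64 (sacCer3) allowing up to 10 places, and grouped into clusters, library by library, with PARalyzer. The deposited cluster tables hold read counts and conversion counts, and a fraction per cluster, the deposited PARalyzer mode score, which was not used. Total RNA was depleted of rRNA, and its reads were mapped with Bowtie and assigned to features with featureCounts by the authors, giving the deposited raw counts. The kit was stranded, but the strand setting of the counting is not given in the sources used here, so antisense reads may be included. All 36054 deposited cluster sequences matched the RefSeq R64 genome at their coordinates.

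Members and gene lists were chosen with earlier results of these data known. The genes named are the 8 members, the list genes with the largest and smallest change, and the 5 genes most like OYE3 and HBN1.

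The 31 rRNA features were removed, and features with at least 10 counts in at least 2 libraries were kept. The 12 untagged, 8 tagged and 8 PAR-CLIP libraries were fitted apart with edgeR 4.0.16 (R 4.3.3; TMM, quasi-likelihood test, 2 libraries per group, 6 untagged groups, adjusted p under 0.05). The SE and 95% interval are Wald values from the posterior quasi-dispersion. With 2 against 2 libraries an exact permutation test cannot go below p = 0.333, so calls rest on the spread shared across groups. The methods name duplicates without more detail for total RNA, so p-values measure only the spread between these samples, which may be technical. Intervals and floors of 3 counts cover counting error only, since reads carry no molecular identifiers. Total RNA cultures were split for the treatment, which pairs same-numbered libraries of a strain. The deviations of replicate 1 from the group means correlated with r of -0.10 in WT, 0.27 in slf1Δ and -0.06 in sro9Δ over 5842 features.

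Alternatives were DESeq2 1.42.0 (test and size factors), other filters, rRNA kept in, a replicate block, each library left out, and for PAR-CLIP a minimum of 20 reads, coding sequence only and scaling to all cluster reads. The fits were also run on counts simulated with the same dispersion for every feature. Nothing is read from this on error rates in these data. Tables, sequences and plots were made with Biopython 1.88, matplotlib 3.10.9, pandas 2.3.3, numpy 2.4.6 and scipy 1.17.1 in Python 3.11.15.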

Additional observations from a re-analysis of the deposited data

How the results depend on the processing

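Of the counts and medians that answer a comparison, 79 held and 1 moved (a count by over 1.5 times, a median by more than the spread between replicates) under the alternatives other than leaving out 1 library, and 61 held and 7 moved with 1 library left out. The exception among the former was the count of members called between slf1Δ and WT after H2O2, which went from 1 to 0 without both libraries with over 90% rRNA (OYE3 -1.44, 4 features called in place of 60), an alternative chosen after seeing the data. With 1 library left out, the 7 lay in that comparison, in untreated slf1Δ against WT and in the WT median, which ran from 4.53 to 4.79. Without WT untreated replicate 2 the untreated HBN1 difference of slf1Δ from WT was 1.65. Nothing is read from it, since it rests on the WT values of the choice. The cause was not tested. The counts that held include those with 0 members called that stayed at 0, which say little about stability.

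AAD14 changed sign in slf1Δ, from 0.20 to -0.028 with the DESeq2 test and -0.15 with the replicate block. With 1 library left out it ran from -7.67 to 0.62 in slf1Δ, the lowest with 0 treated counts left, and from -0.035 to 0.40 in WT. Also with 1 library left out, the AAD6 difference of slf1Δ against WT ran from -0.13 to 0.72, untreated OYE3 in sro9Δ against WT from -6.40 to 0.021, and treated OYE2 in slf1Δ against WT from -0.11 to 0.25. Without sro9Δ untreated replicate 2, OYE3 and HBN1 in sro9Δ gave 13.90 and 15.02 against a group at 0, which is no bound. The replicate block changed no call of a member. Over all features it called 63 differences between the slf1Δ and WT responses and DESeq2 51, the fit without a filter 5, and edgeR as used above 0. DESeq2 called 33 in untreated sro9Δ against WT in place of 15, 28 in untreated slf1Δ in place of 11, and 18 in treated sro9Δ in place of 3. Without the libraries with over 90% rRNA, 745 features were called for the sro9Δ response in place of 1186, and 6 in untreated slf1Δ, and 1 in treated sro9Δ, against WT. Untreated sro9Δ against WT gave 23 without a filter. Shallow libraries limit FRM2, OYE3 and HBN1 in untreated sro9Δ and AAD14 in treated slf1Δ. Some PAR-CLIP alternatives gave no value for a member, because no reads of it were left or it missed the filter.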
